A study of Rattus norvegicus with 23 samples.

Results

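Proteasome subunit genes were followed in the CA3 field of the hippocampus of 23 male Long-Evans rats, with 1 Affymetrix Rat Genome 230 2.0 array per animal. They were taken as the probe sets with a single gene symbol of the Psma, Psmb, Psmc or Psmd families, leaving out Psmb8 and Psmb9, which gave 46 probe sets of 35 genes among 31042 gene probe sets. The animals were 8 aged impaired rats and 6 aged unimpaired rats, both 24 to 26 months old, and 9 young rats of 6 months. Impairment was defined by a learning index in the Morris water maze, in which unimpaired aged rats scored within the range of young rats and impaired aged rats scored worse, and no group was treated. The rats were killed some weeks after testing and CA3 was microdissected, so that neurons, glia and vessels were measured together.

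The proteasome is the barrel-shaped protease that degrades proteins tagged with ubiquitin. Its core particle stacks rings of alpha subunits, which gate the entry, and of beta subunits, some of which cut peptide bonds. The regulatory particle caps the core. Its base unfolds substrates with a ring of ATPases (Psmc genes) and its lid, built around the deubiquitinase Psmd14, removes ubiquitin. In neurons the proteasome also turns over synaptic proteins and takes part in plasticity.

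A probe set was tested where its log2 value reached 4 on at least 6 arrays, and 40 probe sets of 34 genes did so. The remaining 6 lay near the floor of the scale on nearly every array. They were further probe sets of Psmb5, Psmc4, Psmd11 and Psmd14, and the only probe set of Psmc3ip, which shares the name but is not a proteasome subunit. Each gene was represented by its brightest tested probe set. This left 7 alpha ring genes and 6 beta ring genes, together the core of 13, 9 base genes and 8 lid genes, or 30 subunits in all, with 3 chaperones of the base and the inducible beta subunit Psmb10 beside them. The catalytic subunit Psmb6 was not among them, because its probe set carries a second symbol. The 30 subunits were all well expressed, with mean log2 levels between 8.47 and 11.81. Array medians over all probe sets lay between 3.39 and 3.46, and no 2 arrays held identical values. Of the 7 marker genes of the CA3 field, 6 were tested. Markers of the neighbouring fields were also measured. The dentate gyrus markers Prox1 and Calb1 passed the filter on all 23 arrays, while Dsp and Tdo2 stayed below it. Signals of a marker set were added on the linear scale and the log2 of the sum was taken, so the brightest marker weighs most. For Prox1 and Calb1 this log2 summed signal ran from 8.72 to 10.14 in aged impaired rats. It ran from 9.05 to 9.72 in aged unimpaired rats and from 8.92 to 9.87 in young rats. That of the 3 tested CA1 markers (Wfs1, Fibcd1 and Mpped1) ran from 9.45 to 11.2 in aged impaired rats, from 9.93 to 10.5 in aged unimpaired rats and from 8.35 to 10.89 in young rats. None of these 5 genes was called in limma in any of the 4 comparisons. The part of neighbouring fields in the values was not tested.

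In aged impaired against young rats, 0 of the 34 proteasome genes passed the threshold, an adjusted p of 0.05 or less in limma, whereas 9.76% of all 14647 tested probe sets did. Unadjusted p lay below 0.05 for 6 of the 34 genes (17.6%), against 26.3% of all tested probe sets. The differences were small and mostly negative. They ranged from -0.15 for Psma1 to 0.04 for Psmc5 over the 30 subunits, and 24 of the 30 (80.0%) lay below 0, against 56.5% of all tested probe sets. The 95% intervals bounded each difference closely. Over the 30 subunits they reached down to -0.26, for Psma1, which is 1.2-fold lower, and up to 0.14, for Psmd11, which is 1.1-fold higher. Markers of neurons and of the CA3 field also lay lower. Of the 6 neuron markers 2 were called lower. Their log2 summed signal ran from 14.74 to 14.91 in aged impaired rats, against 14.86 to 15.04 in young rats. That of the 6 tested CA3 markers ran from 13.47 to 13.94 in aged impaired rats, against 13.85 to 14.16 in young rats, and 3 were called lower. The part of these cells in the small negative differences was not tested. In such bulk tissue, fewer cells of a type and less RNA per cell cannot be told apart.

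**Figure D1:**
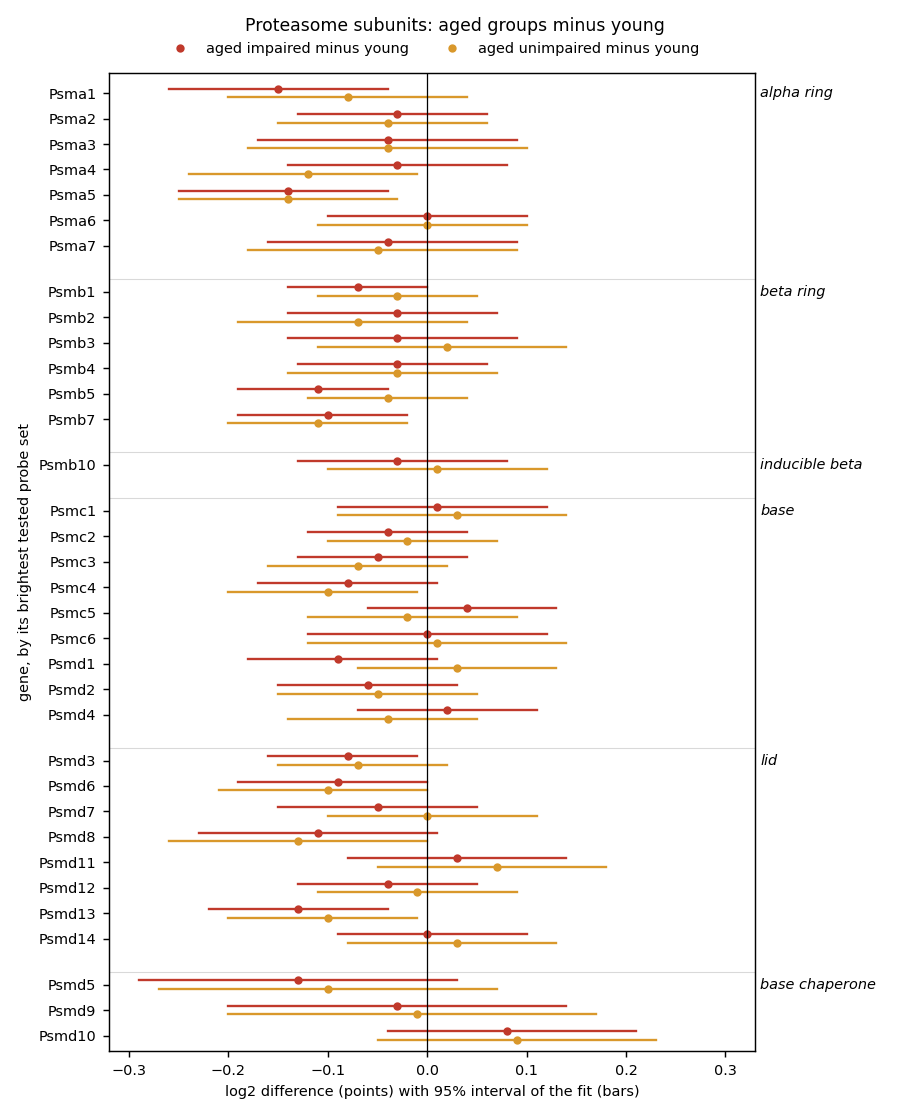
Log2 differences of 34 proteasome genes between each aged group and the young rats, grouped by place in the complex. Points are the fitted differences and bars their 95% intervals (8 aged impaired, 6 aged unimpaired and 9 young rats). Most points lie between -0.15 and 0.09, and the intervals of the 30 core, base and lid genes end between -0.26 and 0.18.

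In the alpha ring, the lowest p belonged to Psma5 and Psma1, structural subunits of the gate-forming ring. The log2 level of Psma5 (probe set 1387884_at) ran from 10.14 to 10.54 with a median of 10.29 in aged impaired rats, from 10.12 to 10.41 with a median of 10.33 in aged unimpaired rats, and from 10.37 to 10.50 with a median of 10.43 in young rats. In both aged groups 5 animals lay below every young animal, and aged impaired animal 1 lay above every young animal. The difference of aged impaired from young rats was -0.14 ± 0.05 (SE), with an adjusted p of 0.0651 in limma, and that of aged unimpaired from young rats was -0.14 ± 0.05, with an adjusted p of 0.172 in limma. Psma1 (1398778_at) ran from 9.65 to 10.06 with a median of 9.92 in aged impaired rats, from 9.87 to 10 with a median of 9.98 in aged unimpaired rats, and from 9.90 to 10.21 with a median of 10.03 in young rats. The groups overlapped, although 7 of the 8 aged impaired and all 6 aged unimpaired animals lay below the young median. Its difference between aged impaired and young rats was -0.15 ± 0.05 (adjusted p = 0.0747, limma). Psma4 (1367837_at) showed the lowest alpha ring p between the aged groups. It ran from 8.32 to 8.75 with a median of 8.49 in aged impaired rats, from 8.19 to 8.50 with a median of 8.40 in aged unimpaired rats, and from 8.45 to 8.61 with a median of 8.50 in young rats. The aged groups overlapped over most of their range, and the difference of 0.09 ± 0.06 between aged impaired and aged unimpaired rats did not pass (adjusted p = 0.485, limma).

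Among the beta subunits, Psmb5 carries the chymotrypsin-like site and Psmb7 the trypsin-like site of the core. Psmb5 (1371348_at) ran from 11.02 to 11.24 with a median of 11.11 in aged impaired rats, from 11.10 to 11.28 with a median of 11.19 in aged unimpaired rats, and from 11.13 to 11.35 with a median of 11.20 in young rats. Below every young animal lay 5 of the 8 aged impaired animals and 1 of the 6 aged unimpaired animals. The difference from young was -0.11 ± 0.04 in aged impaired rats (adjusted p = 0.0534, limma) and -0.04 ± 0.04 in aged unimpaired rats (adjusted p = 0.631, limma). Between the aged groups themselves it was -0.07 ± 0.04 (adjusted p = 0.439, limma), so the larger value in impaired rats was not shown to differ from that in unimpaired rats. Psmb7 (1367656_at) ran from 10.70 to 10.99 with a median of 10.89 in aged impaired rats, from 10.83 to 10.95 with a median of 10.85 in aged unimpaired rats, and from 10.85 to 11.12 with a median of 10.98 in young rats. Here both aged groups stood about equally low, with 3 animals of each below every young animal. Its differences from young were -0.10 ± 0.04 in aged impaired rats (adjusted p = 0.117, limma) and -0.11 ± 0.05 in aged unimpaired rats (adjusted p = 0.217, limma).

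The base holds the ATPases, the scaffold Psmd1 and the ubiquitin receptor Psmd4. The scaffold Psmd1 (1369992_at) had the only unadjusted p under 0.05 between the aged groups. It ran from 8.66 to 8.99 with a median of 8.92 in aged impaired rats, from 8.89 to 9.08 with a median of 8.99 in aged unimpaired rats, and from 8.85 to 9.10 with a median of 8.94 in young rats. Aged impaired animals 2, 6 and 7, at 8.66, 8.77 and 8.83, lay below every animal of the other groups, and the remaining 5 lay within the range of the young animals. The difference of aged impaired from aged unimpaired rats was -0.11 ± 0.05 (unadjusted p = 0.0348, adjusted p = 0.282, limma). The ATPase Psmc4 (1398869_at) ran from 9.71 to 9.88 with a median of 9.79 in aged impaired rats, from 9.67 to 9.86 with a median of 9.74 in aged unimpaired rats, and from 9.64 to 10.03 with a median of 9.85 in young rats. No aged animal lay below the lowest young one, and the differences from young were -0.08 ± 0.04 in aged impaired rats (adjusted p = 0.256, limma) and -0.10 ± 0.05 in aged unimpaired rats (adjusted p = 0.251, limma). Psmd4 (1386930_at) ran from 9.33 to 9.68 with a median of 9.51 in aged impaired rats, from 9.42 to 9.57 with a median of 9.44 in aged unimpaired rats, and from 9.40 to 9.65 with a median of 9.52 in young rats. The aged impaired range enclosed the young one, at a difference of 0.02 ± 0.04 (adjusted p = 0.828, limma).

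In the lid, Psmd13 and Psmd3 are structural subunits of its horseshoe. Psmd13 (1371617_at) ran from 9.08 to 9.36 with a median of 9.13 in aged impaired rats, from 9.15 to 9.23 with a median of 9.19 in aged unimpaired rats, and from 9.19 to 9.49 with a median of 9.27 in young rats. Of the 8 aged impaired animals 6 lay below every young animal, as did 3 of the 6 aged unimpaired animals. Its difference from young was -0.13 ± 0.04 in aged impaired rats (adjusted p = 0.0644, limma) and -0.10 ± 0.05 in aged unimpaired rats (adjusted p = 0.266, limma). Psmd3 (1388466_at) ran from 8.62 to 8.85 with a median of 8.69 in aged impaired rats, from 8.66 to 8.78 with a median of 8.74 in aged unimpaired rats, and from 8.71 to 8.93 with a median of 8.80 in young rats. Again 6 aged impaired animals lay below every young animal, at a difference of -0.08 ± 0.04 (adjusted p = 0.152, limma). Psmd7 (1389245_at), the partner of Psmd14, ran from 9.87 to 10.28 with a median of 10.02 in aged impaired rats, from 10.04 to 10.15 with a median of 10.11 in aged unimpaired rats, and from 9.98 to 10.20 with a median of 10.09 in young rats. The aged impaired animals spanned both other groups, and their difference from aged unimpaired rats was -0.05 ± 0.05 (adjusted p = 0.706, limma). Psmd14 itself (1383429_at), the deubiquitinase, ran from 9.81 to 10.08 with a median of 9.97 in aged impaired rats, from 9.82 to 10.09 with a median of 10.01 in aged unimpaired rats, and from 9.85 to 10.15 with a median of 9.93 in young rats. The 3 groups lay on top of one another, and the difference between aged impaired and young rats was 0.00 ± 0.05 (adjusted p = 0.988, limma).

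**Figure D2:**
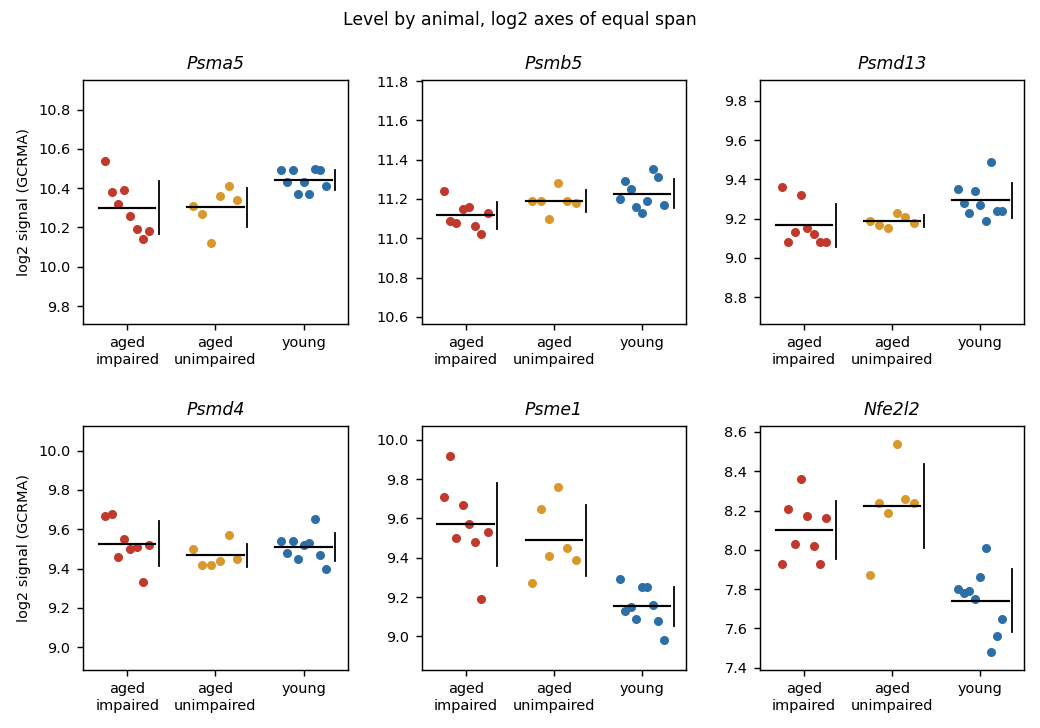
Log2 level of 4 subunits, of the activator subunit Psme1 and of the regulator Nfe2l2 by animal, with the horizontal line at the group mean and the vertical bar at 1 SD to either side (8 aged impaired, 6 aged unimpaired and 9 young rats). All panels span the same number of log2 units. Psma5, Psmb5 and Psmd13 sit slightly lower in the aged impaired than in the young rats. Psma5 and Psmd13 do so in the aged unimpaired rats as well. Psmd4 does not sit lower in the aged impaired rats, and Psme1 and Nfe2l2 sit higher in most aged animals.

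Core, base and lid lay at nearly the same small differences. The median difference of aged impaired from young rats was -0.04 in the core, -0.04 in the base and -0.07 in the lid, beside -0.02 over all tested probe sets. Below 0 lay 12 of the 13 core genes, 6 of the 9 base genes and 6 of the 8 lid genes. The size of the medians moved with the scaling of the arrays. With every array centred on its own median they were -0.07, -0.07 and -0.10, beside -0.05 over all tested probe sets. With every array centred on its bright probe sets, those with a mean log2 level of at least 8, they were -0.01, -0.01 and -0.04, beside 0.01. Of the 30 subunits 23 (76.7%) lay below 0, against 45.7% of all tested probe sets. Here and in the other comparisons the latter share includes dim probe sets, whereas all 30 subunits are bright. No share was taken over bright probe sets alone. The subunits also varied together, so their signs are not independent. In aged unimpaired against young rats 0 of 34 genes passed in limma, where 2.06% of all tested probe sets did, and 5 of 34 (14.7%) had an unadjusted p under 0.05, against 16.8% of all. The medians were -0.04, -0.02 and -0.04 for core, base and lid, against 0.00 over all tested probe sets, and 23 of the 30 subunits (76.7%) lay below 0, against 50.9%. These comparisons share the young animals, so their signs are not independent of each other. In aged impaired against aged unimpaired rats 0 of 34 passed in limma, where 0.778% of all tested probe sets did, and Psmd1 alone (2.94% of the 34) had an unadjusted p under 0.05, against 15.2% of all. The medians there were 0.00, -0.01 and -0.02, against -0.02 over all tested probe sets, and 17 of 30 subunits (56.7%) lay below 0, against 59.2%. With arrays centred on bright probe sets the base median turned to 0.01 and the core median was 0.02. The 95% intervals between the aged groups reached from -0.21, for Psmd1, to 0.21, for Psma4, which is 1.16-fold in either direction.

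When the mean of both aged groups was set against young rats, 1 of the 34 genes passed, and 6.9% of all tested probe sets did. It was Psma5, which was lower by a log2 difference of -0.14 ± 0.04 at an adjusted p of 0.0498 in limma. That call was at the edge of the threshold. It remained past it in 5 of the 23 fits that each left out 1 animal, with adjusted p between 0.0118 and 0.0934 in limma and the difference between -0.16 and -0.12. Unadjusted p lay under 0.05 for 9 of the 34 genes (26.5%), against 23.6% of all. Of the 30 subunits 25 (83.3%) lay below 0, against 54.2% of all tested probe sets, and these included all 13 core genes.

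The count of subunits called in aged impaired against young rats turned on single animals, above all on aged impaired animal 1, the animal with the highest subunit levels of its group. Without it, 5 of the 34 genes were called lower (Psma1, Psma5, Psmb5, Psmd13 and Psmd6), while 8.79% of all tested probe sets were called lower. Without aged impaired animals 1 and 7, the highest and the lowest, 3 were called lower (Psma5, Psmb5 and Psmd13), while 6.32% of all were. Leaving out aged impaired animal 4 or young animal 6 gave 1 call, Psmd13, and leaving out young animal 4 or 5 gave 1 call, Psmb5. The remaining 18 fits without 1 animal gave 0 calls. Without aged impaired animal 1 the mean of both aged groups was lower than in young in 3 genes (Psma5, Psmd13 and Psmd6), while 5.29% of all tested probe sets were called lower, and without young animal 9 Psmc4 was called in place of Psma5. In the same 23 fits, 0 members were called between the aged groups or between aged unimpaired and young rats. The scaling mattered as well. With arrays centred on their medians 6 genes were called lower in aged impaired rats (Psma1, Psma5, Psmb5, Psmb7, Psmd13 and Psmd3), while 12.7% of all tested probe sets were, and with arrays centred on bright probe sets 1 was (Psma5), while 4.16% of all were.

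The subunits shared variation between animals, which was widest among the aged impaired rats. For each animal, the deviation of every subunit from its own mean over the 23 arrays was averaged over the 30 subunits. This average was -0.02 ± 0.09 in aged impaired rats, -0.01 ± 0.05 in aged unimpaired rats and 0.03 ± 0.05 in young rats (SD, n = 8, 6 and 9). Without aged impaired animals 1 and 7 the aged impaired average was -0.02 ± 0.04 (SD, n = 6). In aged impaired animal 1 it was 0.13, with 28 of the 30 subunits above their own mean, and in aged impaired animal 7 it was -0.18, with 0 of 30 above. Young animal 7 stood at 0.13 with 28 of 30 above. Core, base and lid moved together in these animals, at 0.13, 0.13 and 0.10 in aged impaired animal 1 and at -0.19, -0.15 and -0.18 in aged impaired animal 7. Within an animal the core departed from the base by no more than 0.06 and from the lid by no more than 0.12 in either direction. The arrays as a whole moved too. The median deviation of the 6272 tested probe sets with a mean log2 level of at least 8 was 0.09 in aged impaired animal 1, -0.11 in aged impaired animal 7 and 0.05 in young animal 7.

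**Figure D3:**
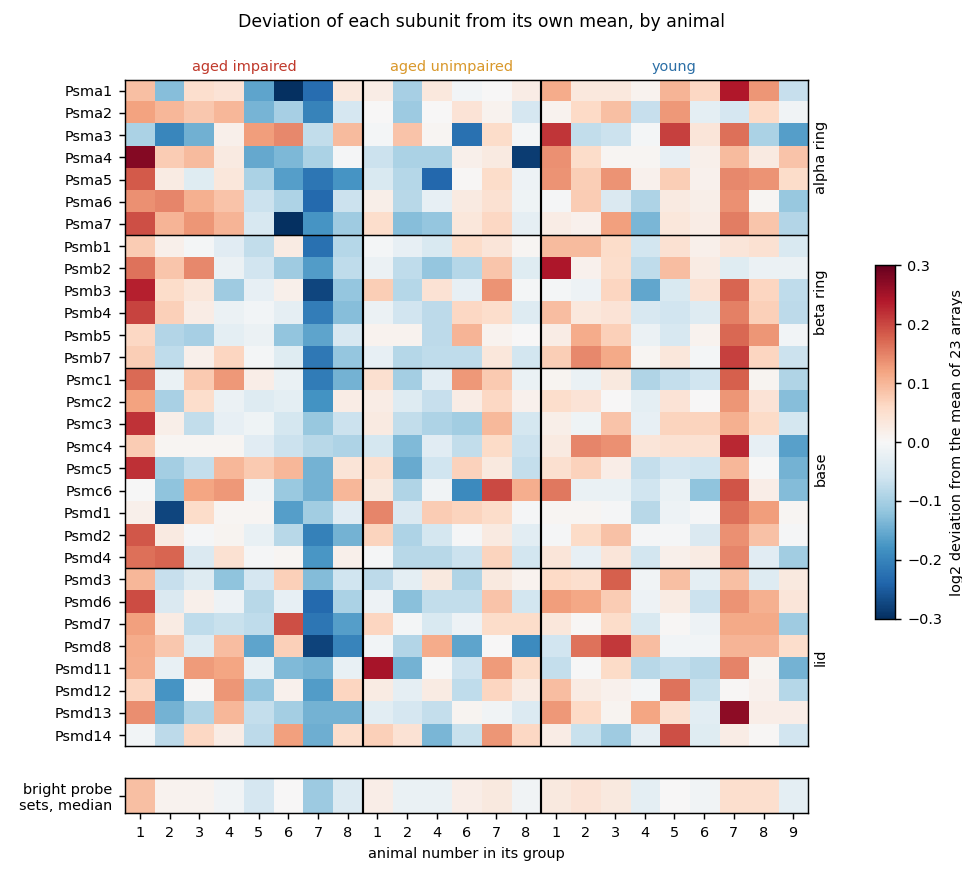
Deviation of each of the 30 subunits from its mean over 23 arrays, on a log2 colour scale that ends at 0.3 in either direction, with 1 column per animal. The strip at the bottom gives the median deviation of all bright probe sets on the same array. Aged impaired animal 1 and young animal 7 are red in nearly every row and aged impaired animal 7 is blue in nearly every row.

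**Figure D4:**
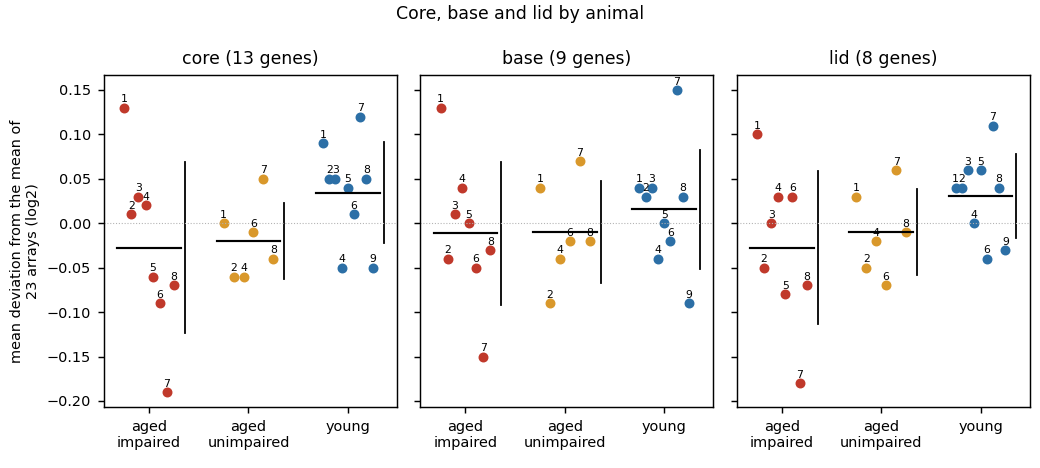
Mean log2 deviation of the core, base and lid genes in each animal, labelled with the animal's number in its group, with the horizontal line at the group mean and the vertical bar at 1 SD to either side (8 aged impaired, 6 aged unimpaired and 9 young rats). The 3 groups overlap in each panel, and aged impaired animals 1 and 7 mark the ends of their group in all 3.

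Most subunits varied together from animal to animal. With group means removed, the 435 pairs among the 30 subunits had a median Pearson r of 0.51 over the 23 animals, and 418 pairs lay above 0. The range was -0.36 to 0.88, with Psmb4 and Psmd2 the closest pair. All pairs of tested probe sets with a mean level of at least 8 had a median r of 0.15, and pairs of a subunit with another such probe set 0.26. The median was 0.60 within the core, 0.60 within the base and 0.41 within the lid, and 0.53 between core and base, 0.41 between core and lid and 0.48 between base and lid. These values are a description, since all genes of an animal share 1 array and any shift of that array enters every pair. When each array was centred on its bright probe sets, the median over subunit pairs was 0.20 and that over all bright pairs 0.00. Without aged impaired animals 1 and 7 the medians were 0.35 and 0.09. Within the groups the subunit pairs had a median of 0.60 among aged impaired rats, 0.47 among aged unimpaired rats and 0.52 among young rats, beside 0.25, 0.09 and 0.13 over all bright pairs.

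The subunits differed in how closely they followed the others. Psma6 and Psmb4 had the highest median r with the other subunits, 0.67 each. Psma3 did not follow them, with a median r of 0.01 and its highest r, 0.54, with Psmd14. Psmd14 had a median of 0.21 and was closest to its lid neighbour Psmd12, at 0.66, and the scaffold Psmd1 had a median of 0.30. The spread of a subunit around its group mean was small, with a median SD of 0.093 over the 30 subunits, against 0.137 over all tested probe sets and 0.11 over those with a mean of at least 8. It ran from 0.066 for Psmb1 to 0.13 for Psma3.

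**Figure D5:**
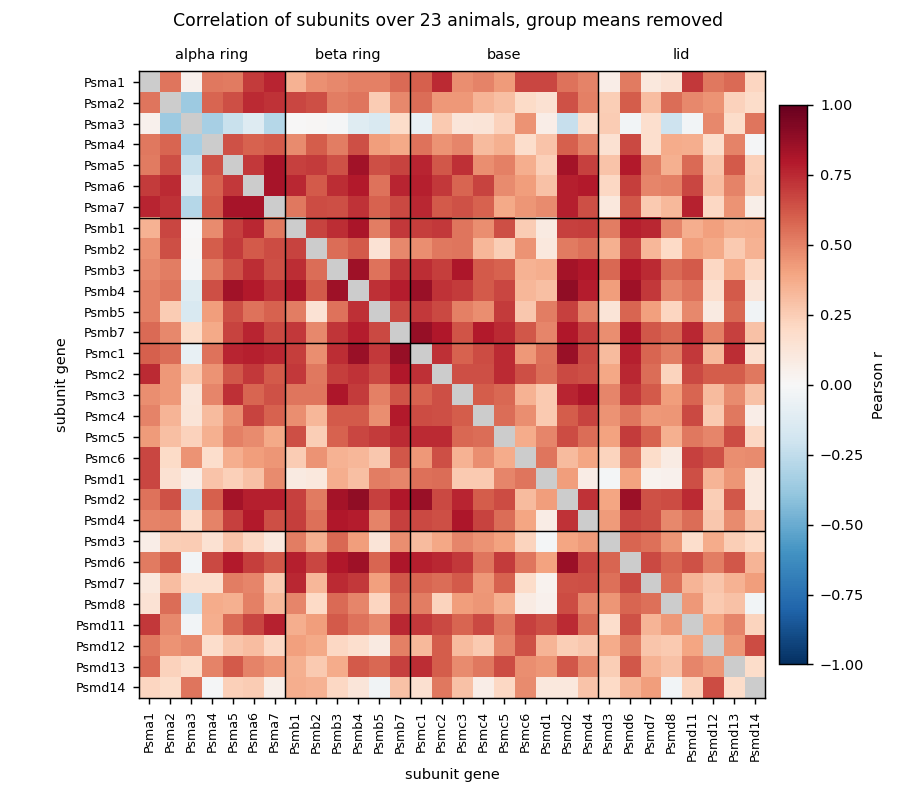
Pearson r between the 30 subunits over 23 animals after group means were removed, with subunits ordered by alpha ring, beta ring, base and lid and the diagonal in grey. Most cells are red, with a median r of 0.51 over 435 pairs. The row of Psma3 is mixed, at a median r of 0.01, with blue cells and with its strongest red cell at 0.54, for Psmd14.

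Promoters of 4 subunits are shown as examples. These genes had an unadjusted p under 0.05 in limma in aged impaired against young rats. So did Psma1 and Psmd3, whose promoters are not shown. Each run holds the 250 bases before the RefSeq gene start on assembly GRCr8, read 5′ to 3′ on the gene's strand. They lie at chr2:198584255-198584504 (plus strand) for Psma5, chr15:32047380-32047629 (minus strand) for Psmb5, chr3:42827471-42827720 (minus strand) for Psmb7 and chr1:205393998-205394247 (plus strand) for Psmd13. Capitals mark matches, on either strand, to CCAAT (the box bound by the factor NF-Y), TGACNNNGC (the core of the antioxidant response element bound by Nfe2l1 and Nfe2l2), CCGGAAG (an ETS factor core) and ATGGCG (part of the YY1 motif).
Psma5: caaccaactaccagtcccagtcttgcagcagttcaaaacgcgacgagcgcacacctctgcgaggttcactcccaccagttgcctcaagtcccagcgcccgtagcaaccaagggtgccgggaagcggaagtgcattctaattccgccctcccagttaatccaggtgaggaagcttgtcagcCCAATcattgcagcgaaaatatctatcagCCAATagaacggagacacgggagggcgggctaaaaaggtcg
Psmb5: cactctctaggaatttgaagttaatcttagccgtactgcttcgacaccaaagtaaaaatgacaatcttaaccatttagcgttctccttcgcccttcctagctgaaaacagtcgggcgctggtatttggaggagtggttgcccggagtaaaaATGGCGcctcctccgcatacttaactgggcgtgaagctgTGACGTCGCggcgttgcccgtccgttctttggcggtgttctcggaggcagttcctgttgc
Psmb7: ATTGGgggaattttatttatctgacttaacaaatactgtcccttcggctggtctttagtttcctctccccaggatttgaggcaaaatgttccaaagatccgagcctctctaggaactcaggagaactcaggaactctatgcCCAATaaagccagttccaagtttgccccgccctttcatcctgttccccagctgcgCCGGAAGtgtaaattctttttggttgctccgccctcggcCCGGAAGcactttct
Psmd13: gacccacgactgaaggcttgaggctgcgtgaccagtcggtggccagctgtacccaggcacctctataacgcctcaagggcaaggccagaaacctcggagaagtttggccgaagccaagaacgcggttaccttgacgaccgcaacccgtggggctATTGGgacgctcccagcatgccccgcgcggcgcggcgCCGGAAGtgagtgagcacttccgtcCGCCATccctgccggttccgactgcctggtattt

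Psma5 holds 2 CCAAT boxes, Psmb5 holds 1 antioxidant response core and 1 YY1 match, Psmb7 holds 2 CCAAT boxes and 2 ETS cores, and Psmd13 holds 1 match each to the CCAAT box, the ETS core and the YY1 part. Promoters were matched for 30 of the 34 tested genes. Of these, 16 (53.3%) held a CCAAT box, against 34% of the 33469 promoters of the table. The antioxidant response core was found in 5 (16.7%, against 10.1%), the ETS core in 9 (30%, against 7.27%) and the YY1 part in 7 (23.3%, against 6.08%). In 1 place of the 30 promoters matches to 2 of these motifs overlapped. The shares over the table count every promoter in it, whether or not its gene was tested here. The members are tested genes with 1 promoter each. No share was taken over promoters of tested genes alone. A match says only that the letters occur in the window.

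The inducible subunits replace the catalytic beta subunits in the immunoproteasome, the form made under interferon. Psmb10 (1374033_at) ran from 6.58 to 6.95 with a median of 6.84 in aged impaired rats, from 6.79 to 6.98 with a median of 6.84 in aged unimpaired rats, and from 6.61 to 6.92 with a median of 6.86 in young rats. The groups overlapped almost completely, at a difference of -0.03 ± 0.05 between aged impaired and young rats (adjusted p = 0.781, limma). Psmb8 and Psmb9 stayed below a log2 value of 4 on all 23 arrays and were not tested. Their medians were 2.79 and 3.55 in aged impaired rats, 3.01 and 3.57 in aged unimpaired rats, and 2.61 and 3.55 in young rats.

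The chaperones Psmd5, Psmd9 and Psmd10 help assemble the base and are not part of the finished complex. None of the 3 was called in limma in any of the 4 comparisons, and 0 had an unadjusted p under 0.05. Their differences between aged impaired and young rats were -0.13 ± 0.08 for Psmd5, -0.03 ± 0.08 for Psmd9 and 0.08 ± 0.06 for Psmd10. Of the 5 genes with more than 1 tested probe set, Psmc6, Psmd7, Psmd11 and Psmd14 had probe sets whose deviations correlated with r between 0.30 and 0.69 over the 23 animals. Their other probe sets differed by between -0.06 and -0.01 between aged impaired and young rats. The second probe set of Psmd7 ran against the first between the aged groups, at 0.10 ± 0.06, and the second of Psmd11 stood at -0.06 ± 0.05 between aged impaired and young rats, where the first stood at 0.03 ± 0.05. The dimmer Psmd9 probe set lay near 4.69 on all arrays and correlated with the brighter at -0.33.

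Around the proteasome, a list of 42 genes for its activators, assembly factors, associated enzymes, ubiquitin, shuttle factors and regulators had 36 tested genes. The list includes Adrm1 and Sem1, subunits of the regulatory particle with other symbols, and neither was called. In aged impaired against young rats 2 rose and 2 fell in limma, while 3.88% of all tested probe sets were called higher and 5.88% lower. In aged unimpaired against young rats 3 rose and 0 fell, beside 1.37% higher and 0.696% lower over all. Between the aged groups 0 were called. Over both aged groups 3 rose and 2 fell, beside 3.34% higher and 3.56% lower over all. The genes that rose were Psme1, Nfe2l2 and Stat3, and those that fell Uba6, Hsph1 and Hspa4. The list's median difference in aged impaired against young rats was -0.03, beside -0.02 over all tested probe sets.

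Psme1 encodes a subunit of the 11S activator, a cap that opens the core without ATP. It ran from 9.19 to 9.92 with a median of 9.55 in aged impaired rats, from 9.27 to 9.76 with a median of 9.43 in aged unimpaired rats, and from 8.98 to 9.29 with a median of 9.15 in young rats. Above every young animal lay 7 of the 8 aged impaired and 5 of the 6 aged unimpaired animals. The difference from young was 0.42 ± 0.08 in aged impaired rats (adjusted p = 0.00232, limma) and 0.33 ± 0.08 in aged unimpaired rats (adjusted p = 0.0414, limma). The second of these calls was lost in 12 of 23 fits without 1 animal, at adjusted p of up to 0.122 in limma, and the first in 0. Psme2, the other subunit of that cap, ran from 7.51 to 8.15 with a median of 7.85 in aged impaired rats, from 7.82 to 8.02 with a median of 7.88 in aged unimpaired rats, and from 7.67 to 7.84 with a median of 7.74 in young rats. Its difference between aged impaired and young rats, 0.10 ± 0.06, did not pass (adjusted p = 0.263, limma), and it passed without aged impaired animal 6, at 0.15 (adjusted p = 0.0439, limma). Of 7 tested microglia markers 6 were called higher in each aged group. Their log2 summed signal was 11.17 to 11.80 in aged impaired and 11.10 to 11.51 in aged unimpaired rats, against 10.54 to 10.88 in young rats.

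Nfe2l1 and Nfe2l2 encode factors that switch on antioxidant and proteasome genes. Nfe2l2 ran from 7.93 to 8.36 with a median of 8.09 in aged impaired rats, from 7.87 to 8.54 with a median of 8.24 in aged unimpaired rats, and from 7.48 to 8.01 with a median of 7.78 in young rats. It rose by 0.36 ± 0.08 in aged impaired (adjusted p = 0.00862, limma) and by 0.48 ± 0.09 in aged unimpaired rats (adjusted p = 0.00591, limma). Both calls held in all 23 fits that left out 1 animal. Beside the 6 of 7 microglia markers called higher in each aged group, 2 of 7 astrocyte markers were called higher in each. The astrocyte log2 summed signal was 15.13 to 15.48 in aged impaired and 15.16 to 15.43 in aged unimpaired rats, against 14.87 to 15.17 in young rats. Its markers did not all move alike. Aged impaired medians of Gfap, S100b and Aqp4 were 12.75, 13.67 and 12.28, against 12.19, 13.53 and 12.07 in young rats. Those of Gja1, Slc1a3, Aldh1l1 and Slc1a2 were 12.97, 12.34, 7.78 and 5.81, against 12.94, 12.40, 7.90 and 5.84. The part of microglia and astrocytes in the Nfe2l2, Psme1 and Stat3 values was not tested. Nfe2l1 differed by 0.10 ± 0.08 between aged impaired and young rats (adjusted p = 0.447, limma). Pomp, the chaperone that matures the core, differed by -0.02 ± 0.05 (adjusted p = 0.81, limma).

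The other called genes of the list act beside the proteasome. Uba6, an enzyme that activates ubiquitin, fell by 0.34 on the log2 scale in aged impaired rats, with means of 7.31 ± 0.22 in aged impaired and 7.65 ± 0.12 in young rats (SD, n = 8 and 9, adjusted p = 0.00846, limma). A dimmer probe set of Uba6 did not follow it, at 0.11 ± 0.05 (adjusted p = 0.148, limma). Hsph1, a heat shock chaperone, fell by 0.18, with means of 10.70 ± 0.13 in aged impaired and 10.88 ± 0.11 in young rats (adjusted p = 0.036, limma), a call that was lost in 10 of 23 fits without 1 animal. Stat3, a cytokine-activated transcription factor, rose by 0.39 ± 0.10 in aged unimpaired rats, with means of 8.39 ± 0.12 in aged unimpaired and 8.00 ± 0.16 in young rats (SD, n = 6 and 9, adjusted p = 0.0436, limma). That call was lost in 15 of 23 such fits, and a dimmer Stat3 probe set ran the other way in aged unimpaired rats, at -0.35 ± 0.27 (adjusted p = 0.531, limma). Hspa4, a chaperone of the same family as Hsph1, fell by 0.25 in the mean of both aged groups (adjusted p = 0.0311, limma), a call lost in 5 of 23. For Txnl1, an associated redox protein, the brightest probe set stood at -0.01 ± 0.04 in aged impaired against young rats (adjusted p = 0.863, limma), and a dimmer one was called lower, at -0.22 ± 0.07 (adjusted p = 0.0397, limma).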

How the data were processed

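The authors deposited log2 values per probe set, computed with GCRMA per the submitters' processing notes, which name no version. GCRMA corrects background by probe sequence, normalizes by quantiles and summarises the probes, which reduces shifts common to most genes and compresses dim ones. Small shifts of whole arrays remained. The median deviation of all tested probe sets was 0.06 in aged impaired animal 1 and -0.07 in aged impaired animal 7. The 23 arrays come from 23 animals that the labels number as biological replicates within each group. Arrays give no read depth, and their number limits the precision.

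From 31099 probe sets, 57 controls were left out. Of the other 31042, the platform annotation named 1 gene for 20826, several for 436 and none for 9780. Those reaching a log2 value of 4 on 6 or more arrays, 14647 in all, were fitted with limma 3.58.1 (R 4.3.3), with 1 mean per group, 20 residual and 2.35 prior degrees of freedom, two-sided moderated tests and Benjamini-Hochberg adjustment over all of them. Each difference is the named aged group minus its comparison group and carries its fitted standard error (SE). Medians, counts and correlations over subunits are descriptions, given beside the same over all tested probe sets. Members and gene lists were chosen with earlier results of these data known. Genes given in full are those called, those with the lowest p in each subcomplex and comparison, the measured catalytic and inducible subunits, Psmd4 and Psmd14. The fit was tested on simulated data. Promoters come from RefSeq, assembly GRCr8. Same-numbered animals of different groups did not deviate together (20 pairs, r from -0.14 to 0.13), so numbers pair no animals. Alternatives covered the filter, scaling, weights, variance model, a control-row gap, a replicate block and leaving out each array (limma with statmod 1.5.0). The gap is the mean log2 value of the GAPDH 5′ control rows minus that of the GAPDH M control rows.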

Additional observations from a re-analysis of the deposited data

Results flagged for a closer look

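Among the 75 sets of animals examined, each the values of 1 gene or subcomplex in 1 group, 4 held an animal far from the rest of its group, and chance alone gives about 1 in 20. Psma1 stood at a log2 level of 9.87 in aged unimpaired animal 2, where the next lowest of its group was 9.96. Psmb10 stood at 6.98 in aged unimpaired animal 7, where the next highest was 6.84. Psmd14 stood at 10.15 in young animal 5, where the next highest was 9.98. Hspa4 stood at 8.11 in aged impaired animal 4, where the next lowest was 8.45. The core, base and lid averages held no such animal in any of the 3 groups.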

How the results depend on the processing

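Members called in aged impaired against young rats, 0 as reported, numbered 6 with arrays centred on their medians, 1 with array weights (Psma5), 1 with a trended robust variance (Psmb5), 1 with the control-row gap as covariate (Psma5), 1 with arrays centred on bright probe sets (Psma5), 3 without aged impaired replicates 1 and 7, and between 0 and 5 when 1 animal was left out. The centring on bright probe sets and the fit without both animals were chosen after seeing the data. For both aged groups against young, 1 as reported, the count was 0 with no filter, 0 with values below 4 set to 4, 3 with centred arrays, 2 with quantile normalization, 2 with array weights, 3 without aged impaired replicates 1 and 7, and between 0 and 3 when 1 animal was left out. The 0 calls in the other 2 comparisons were found under all alternatives run. Medians of core, base and lid in aged impaired against young rats depended on the scaling. They were -0.04, -0.04 and -0.07 as reported and -0.07, -0.07 and -0.10 with arrays centred on their medians. With bright centring they were -0.01, -0.01 and -0.04.

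Over all probe sets, calls in aged impaired against young rats numbered 1429 as reported, 768 with no filter, 2352 with centred arrays and 937 with the control-row gap. Of the called probe sets 39.7% were higher in aged impaired rats as reported, 20.7% with arrays centred on their medians and 60.5% with arrays centred on bright probe sets. In aged unimpaired against young rats calls numbered 302, 126 with no filter, 672 with array weights, and between 175 and 382 when 1 animal was left out. Between the aged groups they numbered 114, 2 with no filter, 180 with quantile normalization, 222 with array weights, 0 with the gap, 183 with bright centring, 14 without aged impaired replicates 1 and 7, and between 2 and 447 when 1 animal was left out. For both aged groups they numbered 1010, 509 with no filter, and between 615 and 1285 when 1 animal was left out. The cause of these changes was not tested. The control-row gap overlapped between groups but ran lower in aged impaired rats, from 2.02 in animal 1 to 2.27. It ran from 2.12 to 2.39 in aged unimpaired and from 2.08 to 2.46 in young rats. A fit with the gap therefore cannot fully separate it from the group. The split of calls for both aged groups was 48.4% higher as reported, 27.2% with arrays centred on their medians and 64.7% with bright centring. Between the aged groups it was 86.8% higher as reported and 72.6% with arrays centred on their medians.

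With the replicate number as a replicate block, although the numbers pair no animals, calls over all probe sets were 870, 86, 0 and 527 for impaired against young, unimpaired against young, impaired against unimpaired and both aged groups, and the Psma5 call for both aged groups was lost (0 members). Only 3 of the 23 arrays correlated best across groups with an array of their own number.

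Signs turned for some small differences. In aged impaired against young rats Psmd14 stood at -0.03 with centred arrays, -0.01 with the gap, -0.01 with the replicate block, -0.02 with the mean of its probe sets and between -0.02 and 0.03 when 1 animal was left out. Psmd4 stood at -0.02 with centred arrays and between 0.00 and 0.05 when 1 animal was left out, Psmb10 at 0.00 with bright centring and between -0.05 and 0.01, and Pomp at 0.00 with quantile normalization, 0.01 with bright centring and between -0.04 and 0.00. In aged impaired against aged unimpaired rats Psmd7, at -0.05 as reported, stood at 0.02 with the mean of its probe sets.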
